A study of Mus musculus with 2 samples.

Results

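CpG-dense stretches of the osteoblast genome that carried almost no methylation in the wild-type library are described here. They lay over 5 kb from every protein-coding transcript start of GENCODE M21, although some lay near an mRNA start of RefSeq. Whole-genome bisulfite sequencing (WGBS) had been run on primary osteoblasts of 3-day-old C57BL/6 mice after 3 days of culture, with 1 library labelled wild type (WT) and 1 library from mice that carried Prx1-Cre and were homozygous for the floxed alleles of Tet1 (fl/fl), of Tet2 (fl/fl) and of Tet3 (fl/fl) (TCKO), in which the Cre, driven in limb and skull mesenchyme, deletes all 3 Tet genes and other cells keep them. The autosomes were divided into bins of 200 bp. A bin was taken when at least 20 CG cytosines (each strand counted) were listed in either library, each library had at least 40 calls, fewer than 10% of the WT calls were methylated, and the bin's midpoint lay over 5 kb from every transcription start site (TSS) of a protein-coding transcript in GENCODE M21 (GRCm38). Of 8254636 autosomal bins with a CG call, 26658 were CpG-dense and deep enough, 9372 of those were below 10% in WT, and 1312 were also over 5 kb from a coding TSS. These 1312 orphan bins formed 1133 islands when bins up to 400 bp apart, start to start, were joined: 992 islands of 1 bin, 114 of 2 bins and 27 of 3 or more. The WT level chose them, so it is given as a description and no test of WT against TCKO is read from it. Each genotype had 1 library, so no comparison of WT with TCKO has replicates behind it, and neighbouring bins share reads and are not replicates.

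CpG islands are stretches where CG dinucleotides have been kept, since CG cytosines that stay unmethylated in the germ line are not lost to deamination. Many lie at promoters of protein-coding genes. Those that do not, often called orphan islands, can hold promoters of noncoding RNAs, genes read by RNA polymerase III such as tRNA genes, distal regulatory elements or the broad unmethylated domains around developmental regulators. TET enzymes oxidize 5mC to 5hmC and further forms, which leads to loss of the mark, and bisulfite sequencing reads 5mC and 5hmC alike.

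Both libraries were first checked against their labels. The TCKO library had few calls in a stretch of each Tet gene that was covered in WT: 70 against 755 in Tet1, 13 against 122 in Tet2 and 9 against 133 in Tet3. The stretches had been chosen from these calls. Expression was not measured in these libraries, so the labelled cells could be checked only by methylation at gene starts. In WT, 7 osteoblast genes ran from 1.41% at Col1a1 to 71.8% at Bglap, a late osteoblast gene, 4 blood and 3 endothelial genes from 63.7% to 86.4%, and 3 muscle and 3 epithelial genes from 7.91% to 82.7%. In TCKO the same genes ran from 4.29% to 92.3%, from 74.3% to 93.9% and from 10.3% to 89.8%, with Ibsp at 29.2% in WT and 92.3% in TCKO, Col1a2 at 9.86% and 35.4%, and Runx2 at 2.88% and 19.7%. Whether the cells of the 2 libraries differed, and its part in the results, was not tested. Over all autosomes 70.4% of the WT calls and 76.6% of the TCKO calls were methylated, and the autosomal totals were 250877554 and 214609823 calls. The orphan bins had a median of 3.38 WT calls and 3 TCKO calls per listed cytosine. Calls on 1 read are not independent, so intervals and limits cover counting error only.

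The sequences that mark the range of outcomes are shown as the plus strand of GRCm38, 5′ to 3′, with each CG in capitals. The first set holds the 4 bins with the highest TCKO level among those that touched no annotated exon, the second set the 2 bins with a whole tRNA gene and the most TCKO calls of which none was methylated, and the last set the 2 bins chosen by the same count of calls among intron and intergenic bins.
high in TCKO, nearest Cdc5l, chr17:45247801-45248000: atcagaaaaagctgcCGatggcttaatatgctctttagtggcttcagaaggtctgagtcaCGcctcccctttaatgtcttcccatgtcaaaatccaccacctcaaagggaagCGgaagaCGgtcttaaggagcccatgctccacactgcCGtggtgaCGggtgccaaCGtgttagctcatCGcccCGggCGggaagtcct
high in TCKO, nearest Lrig3, chr10:126142801-126143000: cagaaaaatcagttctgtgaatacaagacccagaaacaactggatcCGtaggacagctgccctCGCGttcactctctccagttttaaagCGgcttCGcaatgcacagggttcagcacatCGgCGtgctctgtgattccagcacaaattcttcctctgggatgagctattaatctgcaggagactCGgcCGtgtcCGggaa
high in TCKO, nearest Mettl8, chr2:70940801-70941000: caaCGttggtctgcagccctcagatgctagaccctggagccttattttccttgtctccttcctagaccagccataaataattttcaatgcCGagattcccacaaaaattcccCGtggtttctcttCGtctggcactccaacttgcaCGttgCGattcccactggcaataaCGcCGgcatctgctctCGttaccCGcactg
high in TCKO, intron of Lima1, chr15:99814801-99815000: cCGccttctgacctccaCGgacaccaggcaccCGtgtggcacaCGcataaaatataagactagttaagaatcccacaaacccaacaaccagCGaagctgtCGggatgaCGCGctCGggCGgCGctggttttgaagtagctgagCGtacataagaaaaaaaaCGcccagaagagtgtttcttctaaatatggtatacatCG
low in TCKO, tRNA-Leu gene n-TLcag10, chr13:23453401-23453600: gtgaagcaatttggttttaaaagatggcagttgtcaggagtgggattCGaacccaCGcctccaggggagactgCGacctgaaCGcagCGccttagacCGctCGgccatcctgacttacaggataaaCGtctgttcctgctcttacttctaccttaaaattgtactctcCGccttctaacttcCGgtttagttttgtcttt
low in TCKO, tRNA-His gene n-THgtg4, chr2:122375401-122375600: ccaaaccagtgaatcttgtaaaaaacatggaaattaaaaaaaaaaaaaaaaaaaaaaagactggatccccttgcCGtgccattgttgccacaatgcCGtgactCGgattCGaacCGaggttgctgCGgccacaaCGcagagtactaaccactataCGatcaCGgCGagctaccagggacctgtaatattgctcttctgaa
low in TCKO, nearest Klrb1c, chr6:128760401-128760600: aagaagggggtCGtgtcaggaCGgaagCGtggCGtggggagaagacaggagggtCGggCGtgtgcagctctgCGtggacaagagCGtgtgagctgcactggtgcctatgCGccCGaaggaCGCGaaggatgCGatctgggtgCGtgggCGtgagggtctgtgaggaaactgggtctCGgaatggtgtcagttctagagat
low in TCKO, nearest Id3, chr4:136135001-136135200: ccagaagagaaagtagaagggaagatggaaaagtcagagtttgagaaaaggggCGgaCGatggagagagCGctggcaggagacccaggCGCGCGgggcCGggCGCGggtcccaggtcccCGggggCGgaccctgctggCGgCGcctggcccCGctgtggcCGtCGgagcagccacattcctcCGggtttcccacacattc

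In the first 4 bins the methylation covered the whole stretch in TCKO. The bin nearest Cdc5l, which encodes a splicing and cell-cycle protein, had 7 of 78 methylated calls in WT and 55 of 58 in TCKO, and each of its 10 CG sites with at least 3 calls was between 75% and 100% in TCKO. The bin nearest Lrig3 had 11 of 119 and 84 of 89, with its 10 sites between 87.5% and 100%. The bin nearest Mettl8 had 3 of 148 and 68 of 74, with its 10 sites between 60.0% and 100%, and the bin in the Lima1 intron had 9 of 95 and 75 of 82, with 12 covered sites between 76.9% and 100%. At the other end, the tRNA-Leu bin had 0 of 260 methylated calls in WT and 0 of 256 in TCKO, which allows up to 1.17% in TCKO, and the tRNA-His bin had 0 of 156 and 0 of 148, which allows up to 2.03%. The bin nearest Klrb1c had 0 of 267 and 0 of 207, and the bin nearest Id3, with 17 CG in 200 bases, had 0 of 334 and 0 of 183. Both tRNA bins held the string GGTTCGA, the core of the B box inside tRNA genes, in the tRNA gene's own strand or its complement. The Cdc5l bin held GGGCGGG, the string bound by SP and KLF factors, and TGACTCA or its complement TGAGTCA, the AP-1 string.

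Most orphan bins stayed low in TCKO, and a minority reached high levels. Pooled over the 1312 bins, 2608 of 131587 WT calls (1.98%) and 8585 of 114033 TCKO calls (7.53%, 95% Wilson interval 7.38 to 7.68) were methylated. The median bin was at 0.730% in WT and 1.68% in TCKO, below the pooled level in both, and the TCKO median ranged from 0.769% to 3.33% under other settings of the rule. In TCKO 504 bins had no methylated call, 943 (71.9%) were below 5%, 213 were at 10% or more, 96 (7.32%, interval 6.03 to 8.85) at 25% or more and 51 at 50% or more. The level was above that of WT in 673 bins, equal in 361 and below in 278. The choice of low WT bins partly fixes this split. In 620 bins no WT call was methylated, so the level could not be lower, and 360 of these were equal and 260 above. Counted by island, 92 of 1133 (8.12%) were at 25% or more and 384 had no methylated TCKO call.

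**Figure D1:**
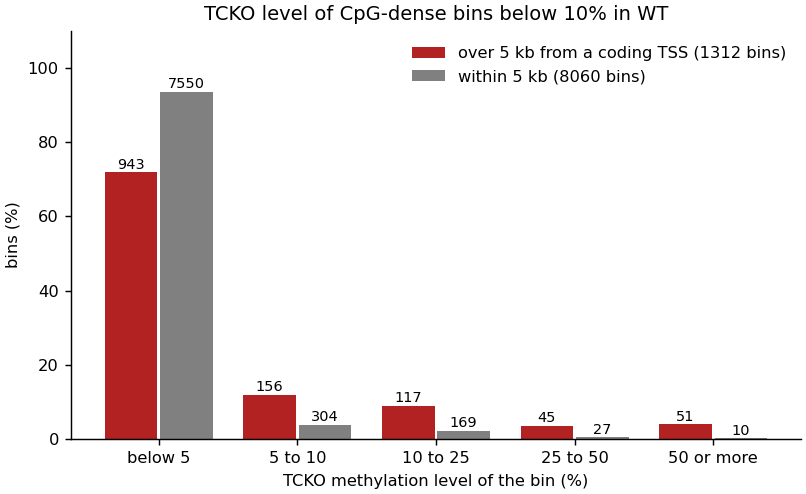
Share of CpG-dense bins below 10% in WT (%) in 5 classes of the TCKO methylation level (%), with the number of bins above each bar. Red bars are the 1312 bins over 5 kb from a coding TSS and grey bars the 8060 within 5 kb: 51 of the former and 10 of the latter were at 50% or more.

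CpG-dense bins that met the same rule within 5 kb of a coding TSS were lower. The 8060 such bins had 0.678% methylated calls in WT and 1.30% (1.28 to 1.33) in TCKO, with 37 (0.459%) at 25% or more in TCKO. The gap was also present between bins with the same WT level. Of bins with no methylated WT call, 21 of 620 orphan bins (3.39%) and 10 of 6120 near bins (0.163%) were at 25% or more in TCKO, and of bins between 5% and 10% in WT, 39 of 177 (22.03%) and 20 of 266 (7.52%). It was present at each density too: 44 of 305 orphan bins (14.4%) and 16 of 1116 near bins (1.43%) with 20 or 21 CG cytosines, and 12 of 622 (1.93%) and 13 of 5178 (0.251%) with 26 or more. Bins are not replicates of a genotype, so these shares are descriptions and the difference between the sets was not tested.

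The TCKO level differed by CpG density and by distance from a TSS, in classes that also differed in WT level. Among all bins over 5 kb from a coding TSS and below 10% in WT, 63.5% of the 4220 bins with 4 to 7 CG cytosines were at 25% or more in TCKO, 54.3% of the 4060 with 8 to 11, 39.7% of the 2425 with 12 to 15, 28.7% of the 1260 with 16 to 19, and 7.32% of the 1312 with 20 or more. Within 5 kb the shares ran from 21.7% to 0.459% over the same classes. The classes differed in WT level and depth too. Over 5 kb, bins with 4 to 7 CG cytosines were at 4.27% in WT, with a median of 12.5 WT calls per cytosine. Those with 20 or more were at 1.98%, with 3.38 calls. The part of WT level and depth in these shares was not tested. Among the orphan bins themselves the pooled TCKO level was 5.65% at 5 to 10 kb from a coding TSS, 5.06% at 10 to 25 kb, 7.84% at 25 to 50 kb, 9.29% at 50 to 100 kb and 14.1% beyond 100 kb. The pooled WT level of these distance classes ran from 1.72% at 5 to 10 kb to 2.71% beyond 100 kb. Just inside the distance limit, 64 bins at 5 to 6 kb had 7.70% methylated TCKO calls and 4 (6.25%) were at 25% or more, and just outside it 93 bins at 4 to 5 kb had 4.47% and 2 (2.15%). At the WT limit, 27 bins at 9 to below 10% had 21.1% methylated TCKO calls and 30 bins at 10 to 11% had 32.8%. At the density limit, 253 bins with 20 CG cytosines were at 13.05% in TCKO and 62 with 19 were at 13.2%. The highest WT level inside was 10 of 101 calls in a bin nearest Cstf3, with 14 of 96 in TCKO, and the lowest outside was 6 of 60 in a bin nearest Cbx8, with 2 of 58.

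**Figure D2:**
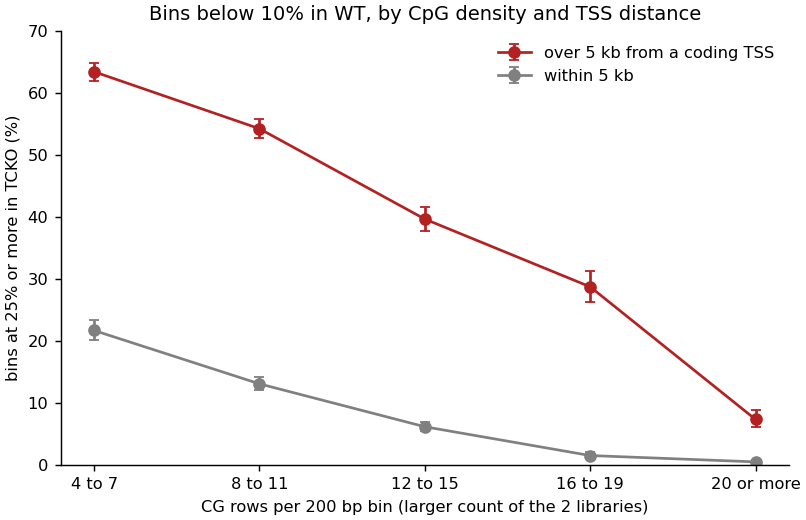
Share of bins at 25% or more in TCKO (%, with 95% Wilson intervals over bins) against the number of CG cytosines in the 200 bp bin, for bins below 10% in WT over 5 kb (red) and within 5 kb (grey) of a coding TSS. Both lines fall as CpG density rises, from 63.5% to 7.32% and from 21.7% to 0.459%. The WT level and the calls per cytosine also fall over these classes.

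Of all 1257562 autosomal bins tested (Fisher's exact test, 2-sided, adjusted by Benjamini and Hochberg), 2.59% were called higher in TCKO, at an adjusted p below 0.05 and a difference above 40 percentage points, and 0.0111% lower. Of the orphan bins 61 of 1312 (4.65%) were called higher and 0 lower. Since the WT level chose these bins, nothing is read from that count. Among all autosomal bins below 10% in WT with at least 4 CG cytosines, 21.9% were at 25% or more in TCKO, against the 7.32% given above. To see the other direction, the libraries were exchanged, a comparison added after the data were seen: the TCKO level below 10% chose 1137 distal CpG-dense bins, and the WT level was read. In those, 1.87% (1.79 to 1.95) of WT calls were methylated and 5 bins (0.440%) were at 25% or more in WT. Both choices shared 1099 bins, which is 83.8% of the 1312 and 96.7% of the 1137.

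The outcome differed by annotation. A tRNA gene lay within 500 bp of 130 orphan bins, another small RNA gene within 500 bp of 66, and the start of a RefSeq mRNA, of a noncoding gene or of a noncoding transcript of a coding gene within 1 kb of 54, 234 and 43. Pseudogenes held 41, coding exons 63, untranslated exons 22, introns 136, and 523 bins were intergenic. Each bin was counted only in the first class it met, in this order. Intergenic bins met no other class and lay outside protein-coding genes. Bodies of noncoding genes over 1 kb from a start were not checked, so some of these bins can lie in them. In all, 335 bins (25.5%) lay inside a protein-coding gene and 977 outside. The pooled TCKO level was 1.80% (1.59 to 2.04) at tRNA genes, 2.77% (2.39 to 3.21) at other small RNA genes and 4.43% (4.14 to 4.74) at noncoding gene starts. It was 7.83% (7.07 to 8.67) at RefSeq mRNA starts, 9.72% (8.82 to 10.7) at noncoding transcript starts of coding genes, 6.36% in pseudogenes, 7.42% in untranslated exons, 9.11% (8.85 to 9.37) in intergenic bins, 11.7% (10.7 to 12.7) in coding exons and 13.9% (13.2 to 14.6) in introns. At 25% or more in TCKO were 1 of 130 tRNA bins, 0 of 66 small RNA bins, 9 of 234 noncoding gene starts and 3 of 54 RefSeq mRNA starts. So were 3 of 43 noncoding transcript starts of coding genes, 1 of 41 pseudogene bins and 43 of 523 intergenic bins. Of bins inside genes, 8 of 63 coding exon bins, 3 of 22 untranslated exon bins and 25 of 136 intron bins reached that level. The pooled WT levels of these classes ran from 1.01% to 2.64%.

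**Figure D3:**
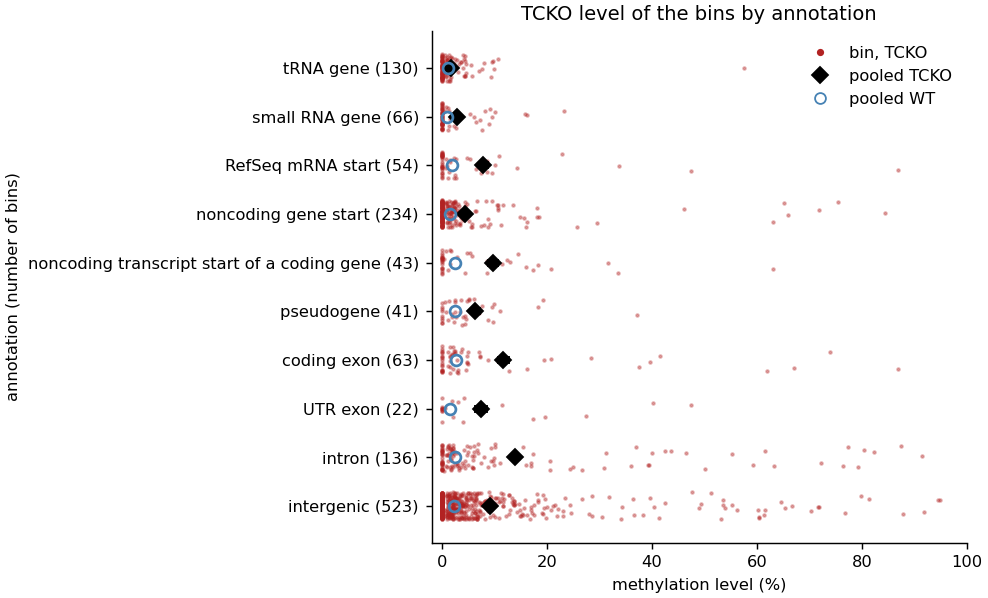
Methylation level (%) of the 1312 orphan bins by annotation, with the number of bins in brackets. Red points are single bins in TCKO, black diamonds the pooled TCKO level with its 95% Wilson interval (mostly narrower than the symbol) and blue circles the pooled WT level. The 130 tRNA bins lie near 0 apart from 1 bin at 57.4%, while introns and intergenic bins spread up to 94.8%.

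tRNA genes, which RNA polymerase III transcribes from promoters inside the gene, held several of the longest islands. Of 300 autosomal tRNA genes over 5 kb from a coding TSS, 115 had an orphan bin within 500 bp. The island with the most bins, 6 in 1400 bp at chr1:171072201-171073600, held the tRNA-Gly gene n-TGtcc5 and had 2 of 615 methylated calls in WT and 6 of 365 in TCKO (1.64%, 0.756 to 3.54). The next, at n-TGtcc4 on the same chromosome, had 16 of 496 and 21 of 610, the island of 4 bins at the tRNA-Pro gene n-TPagg4 on chromosome 14 had 0 of 475 and 0 of 379, which allows up to 0.792% in TCKO, and the island at the tRNA-Pro gene n-TPagg2 had 1 of 297 and 1 of 285. All of these were below 5% in both libraries. In the tRNA clusters of chromosome 13, 5 islands nearest Vmn1r223 had 10 of 1021 methylated WT calls and 7 of 798 TCKO calls, and 5 nearest Gpx5 had 6 of 462 and 6 of 411. The 7 islands nearest Zfp184, 6 of them at tRNA genes, were at 3.83% in WT and 5.19% in TCKO, and the 5 nearest Abt1 at 1.31% and 1.97%. The 4 nearest Trim27, 3 of them at tRNA genes, were at 1.32% and 3.05%. The 4 nearest Zfp322a, only 1 of them at a tRNA gene, were at 1.08% and 2.86%. These clusters were chosen after their values were seen. The only tRNA bin above 25% lay in an intron of Nfib, which encodes a nuclear factor I protein, within 500 bp of the tRNA-His gene n-THgtg10. It had 9 of 122 in WT and 27 of 47 in TCKO (57.4%, 43.3 to 70.5).

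Not every tRNA gene was unmethylated. Over the gene and 250 bp on either side, 181 of the 277 distal tRNA genes with at least 10 calls in each library were below 10% in WT, and 2 of the 181 were at 25% or more in TCKO. Those were 1 tRNA-Gly and 1 tRNA-Trp gene, and no tRNA-His gene was among them. The 57 tRNA-Cys genes, which had no orphan bin within 500 bp, were at 43.95% in WT and 42.6% in TCKO, pooled. Only 34 of them had at least 10 calls in each library, and 5 of the 34 were below 10% in WT. Pooled over all 300 distal tRNA genes, the level was 10.9% in WT and 13.5% in TCKO. For comparison, the 86 tRNA genes within 5 kb of a coding TSS were at 4.58% and 6.41%, pooled in the same way.

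Other small RNA genes were mostly low in both libraries. In 4 islands nearest Eapp, all at small RNA genes, 2 of 659 WT calls and 1 of 441 TCKO calls were methylated. A group of 8 islands nearest Rhou on chromosome 8, 7 of them at small RNA genes that include copies of the 5S ribosomal RNA gene, went from 12 of 1243 (0.965%) in WT to 93 of 1448 (6.42%, 5.27 to 7.80) in TCKO, with the highest island at 9.09%. The highest small RNA bin in TCKO was at Rnu1b2, a U1 small nuclear RNA gene, with 0 of 53 in WT and 20 of 86 in TCKO (23.3%, 15.6 to 33.2). Repeated copies can share reads, and these groups were chosen after their values were seen.

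The 10 islands with the highest TCKO level, each of 1 bin, lay mostly away from any annotated start. After the bins nearest Cdc5l (94.8%, 85.9 to 98.2), Lrig3 (94.4%), Mettl8 (91.9%) and in intron 4 of 10 of Lima1 (91.5%) came an intergenic bin nearest Castor2. It had 5 of 71 in WT and 123 of 140 in TCKO. A bin in intron 6 of 10 of Shq1, an assembly factor of box H/ACA particles, had 4 of 80 and 56 of 64. In intron 3 of 3 of Bcl11b (ENSMUSG00000048251), which encodes a zinc finger factor of T cell and neuronal development, chr12:107930801-107931000 had 0 of 117 in WT and 99 of 114 in TCKO (86.8%, 79.4 to 91.9), and a RefSeq mRNA of Bcl11b starts within 1 kb of it. A coding bin in exon 12 of 16 of Spen, a transcriptional corepressor, had 0 of 54 and 92 of 106. A bin in intron 6 of 14 of Uvrag, an autophagy gene, had 4 of 57 and 79 of 96, and an intergenic bin nearest Cog6, a Golgi tethering gene, had 2 of 61 and 39 of 48. These bins were taken from the top of the TCKO levels, so the gap to WT is a description.

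**Figure D4:**
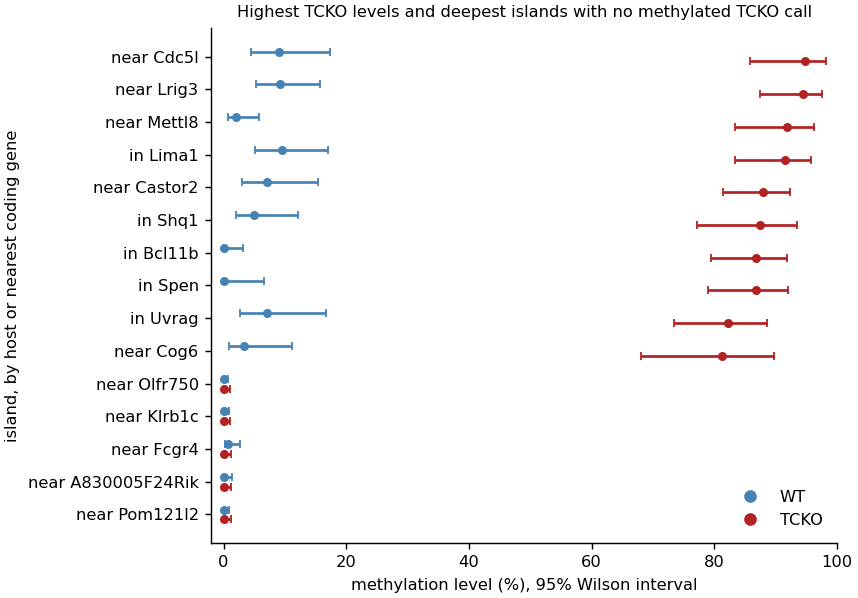
Methylation level (%) with 95% Wilson intervals in WT (blue) and TCKO (red) of the 10 islands with the highest TCKO level and of the 5 with the most TCKO calls and none methylated, named by host or nearest coding gene. The first 10 are at 81.2% to 94.8% in TCKO and below 10% in WT, and the last 5 are at 0% in TCKO.

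Further high islands were picked after their values were seen, from among the 5 highest of each annotation class. An island of 2 bins in intron 2 of 10 of Nfia, at the start of a noncoding RNA, had 3 of 152 in WT and 109 of 139 in TCKO (78.4%). A bin in intron 1 of 9 of Nfix, within 1 kb of a RefSeq mRNA start, had 7 of 165 and 92 of 194 (47.4%). In an intron of the transferrin gene Trf, 1 of 313 WT calls and 137 of 217 TCKO calls were methylated (63.1%). The start of a noncoding transcript of a coding gene lay within 1 kb of that bin. At the last exon of Atp8b4, a lipid-transporting ATPase gene, an island of 2 bins, 1 in coding sequence and 1 in the intron beside it, had 3 of 211 and 142 of 204 (69.6%). Introns of Sept11 (1 of 62 and 37 of 46) and Wwox (3 of 77 and 46 of 58) were at 80.4% and 79.3% in TCKO.

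Developmental transcription factors were the largest of the gene lists. Of 210 autosomal genes of this list, 78 were the nearest or host gene of an orphan island, with 140 islands in all, of which 7 were at 25% or more and 19 at 10% or more in TCKO, and the median island was at 2.41%. Of all 1133 islands 92 (8.12%) were at 25% or more and 198 at 10% or more, and the median was 1.89%. The 6 islands nearest Pax2, a kidney and eye regulator, had 18 of 1045 methylated calls in WT and 26 of 1060 in TCKO, the 4 nearest Pax3 had 12 of 471 and 8 of 462, and the 4 nearest Sox2, a stem cell and neural factor, had 4 of 275 and 3 of 267. The 7 islands nearest Sox1 ran from 0% to 15.5% in TCKO and the 6 nearest Uncx from 0% to 17.0%. The 7 at 25% or more lay at Bcl11b (above), Irx5 (11 of 160 in WT and 111 of 139 in TCKO, 70125 bp upstream), Lhx8 (10 of 155 and 55 of 102), Twist2 (2 of 55 and 50 of 105), Lmx1b (2 of 61 and 20 of 50, in intron 2 of 7), Pou2f1 (8 of 89 and 28 of 71, inside Cd247) and Tcf7 (1 of 50 and 15 of 41). Bcl11b held the contrast within 1 intron: another bin of intron 3, 50914 bp from the start, had 0 of 76 and 0 of 48.

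The other gene lists were smaller, and are to be read against the same 92 and 198 of 1133 islands. For HOX genes, 10 of 39 had an orphan island, and 1 of 13 islands was at 25% or more: a bin 52305 bp downstream of Hoxc4 had 2 of 52 in WT and 12 of 42 in TCKO, while an island of 2 bins within Hoxc5 had 5 of 253 and 0 of 149. Imprinted genes had 9 islands at 7 of 42 genes, with a median of 13.6%, 5 of them at 10% or more and 1 at 25% or more: 5 of 72 in WT and 38 of 71 in TCKO, 258570 bp upstream of Rtl1. The bins of these islands were at 5.76% in WT, pooled, against 1.98% for all orphan bins. Of all orphan bins at 5 to below 10% in WT, 97 of 177 were at 10% or more in TCKO. The part of the WT level in the imprinted counts was not tested. Skeletal genes had 7 islands at 6 of 45 genes. The bin 132924 bp downstream of Smad7, which encodes an inhibitor of TGF-β signalling, lies in an intron of Ctif and had 1 of 86 and 22 of 56 (39.3%). The islands nearest Gdf6 (1 of 89 and 4 of 43), Fgfr3 (0 of 46 and 6 of 69), Bmp4 (2 of 41 and 6 of 76), Col1a1 (0 of 117 and 5 of 84) and Sost (1 of 82 and 1 of 44) were all below 10% in TCKO, and a further one upstream of Smad7 had 2 of 99 and 8 of 74. Of the protocadherin genes, 1 of 56 had an island, with 0 of 60 and 2 of 69.

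The extent of the unmethylated stretch in WT was then measured outward from each island over bins below 20%. The median span was 1200 bp, with quartiles of 800 and 2000 bp. In spans of up to 400 bp, 34 of 137 orphan bins (24.8%) were at 25% or more in TCKO and the pooled level was 19.8%. The shares were 12.6% of 317 bins in spans of 600 to 800 bp, 4.08% of 392 in 1000 to 1600 bp, 2.08% of 289 in 1800 to 3200 bp and 0 of 177 in longer ones, where the pooled level was 2.02% against 1.78% in WT. The place within the span went the same way: the outermost bins were at 15.4% in TCKO (3.47% in WT), bins 1 step inward at 7.99% (2.02%), bins 2 or 3 steps inward at 2.91% (0.975%) and bins 4 or more steps inward at 1.99% (1.30%). The longest span, 20000 bp, held a bin 7200 bp upstream of Pax6, at the noncoding RNA Paupar, with 3 of 82 in WT and 0 of 75 in TCKO. WT levels of the bins that set the spans also chose the members, so the spans are partly a restatement of the rule.

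Around the 96 bins at 25% or more in TCKO, WT methylation rose from 4.33% at the centre to 13.9% and 19.3% in the bins 200 bp to either side and to 72.3% and 70.5% at 1 kb. In TCKO the same positions were at 55.0%, 60.8% and 59.6%, and 82.0% and 82.7%. Around the 943 bins below 5% in TCKO, WT was at 1.04% at the centre, 4.21% and 3.41% at 200 bp and 35.3% and 34.9% at 1 kb, and TCKO was at 1.22%, 5.94% and 5.90%, and 39.7% and 39.6%. In both groups and both libraries the centre was below the level at 1 kb, and in the first group by less in TCKO than in WT. The TCKO level defined the groups, so their centres are a description.

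**Figure D5:**
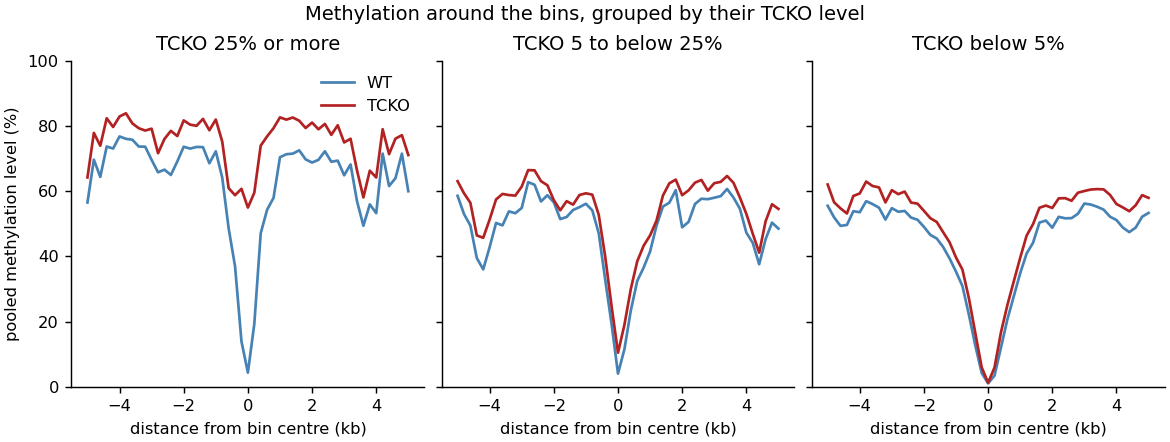
Pooled methylation level (%) in WT (blue) and TCKO (red) by distance from the bin centre (kb), for orphan bins at 25% or more, 5 to below 25% and below 5% in TCKO. In the left panel the WT dip from about 70.5% at 1 kb to 4.33% at the centre is shallower in TCKO, from 82.7% to 55.0%, and in the right panel both lines reach their lowest point at the centre, at 1.04% and 1.22%.

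Within the bins at 25% or more, methylation in TCKO was spread over cytosines and strands. Of 643 cytosines with at least 5 calls, 2.64% were at 0%, 10.6% between 0 and 25%, 52.4% between 25% and 75% and 34.4% at 75% or more in TCKO, while 70.9% were at 0% in WT. Of 88 such bins with at least 5 calls on each strand, 70 were at 25% or more on both strands. In the other bins, 77.3% of 6311 cytosines were at 0% in TCKO.

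The orphan bins were somewhat less CG-rich than the near bins, with a median of 13 CG and 58.2% GC against 16 CG and 62.5%. The bins at 25% or more in TCKO had a median of 11 CG, 53.0% GC and an observed over expected CpG ratio of 0.799, against 14 CG, 59.5% and 0.887 in those below 5%. Repeat bases (soft-masked) made up 50% or more of 29 orphan bins (2.21%), against 0.496% of the near bins and 28.9% of all CpG-dense bins. Exact strings were searched on both strands. GGGCGGG (SP/KLF) was in 18.3% of the orphan bins, 23.8% of the near bins and 11.2% of all CpG-dense bins, and in 4 of the 96 bins at 25% or more (4.17%) and 180 of the 943 below 5% (19.1%). The CTCF core strings AGGGGGC or AGGTGGC were in 12.96% of the orphan bins, 12.92% of the near bins, 8.26% of all CpG-dense bins, 5.21% of those at 25% or more and 14.1% of those below 5%. TGACTCA or TGAGTCA (AP-1) was in 5 of the 96 (5.21%) and 19 of the 943 (2.01%), and AACCACA (Runt) in 3 and 15. The other planned strings were less frequent in the orphan bins than in all CpG-dense bins. AAGATGG (YY1) was in 2.97% and 6.81%, TGCCGC (ZFP57) in 13.8% and 17.4%, and TGACGTCA (CRE) in 0.838% and 1.99%. GCATGCGC (NRF1) was in 1.60% and 2.23%, CCGGAAGT (ETS) in 0.915% and 1.24%, and CTCGCGAG (ZBTB33) in 0.305% and 0.349%. GGTTCGA, added after the data were seen, was in 44.6% of the tRNA bins and 1.02% of the others. The sets also differed in CG and GC content, as given above, and its part in these shares was not tested.

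Some orphan bins were unusually deep. The 16 islands nearest Ezh2 or Pdia4 on chromosome 6, between 47650801 and 47778800, held up to 1509 WT calls each, and were at 2.71% and 3.995% in WT and 7.09% (6.19 to 8.11) and 8.27% (7.45 to 9.16) in TCKO. In 10 orphan bins the calls per cytosine were above the 99th percentile of CpG-dense bins, and with these left out 96 of 1302 bins (7.37%) were at 25% or more in TCKO. Without the bins between Ezh2 and Pdia4 the pooled TCKO level was 7.51%.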

How the data were processed

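WGBS of WT and TCKO primary osteoblasts, 1 library each, was used. Per the study's methods and processing notes, reads were mapped with BSMAP 2.74 to GRCm38 and those with 1 unique position were used. The authors deposited raw counts, not normalized, of methylated calls and of all calls at every CG cytosine of either strand. Removal of duplicates is not given in the sources used here. Groups came from the labels.

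Levels were methylated over all calls, pooled, with 95% Wilson intervals. The members and lists were chosen with earlier results of these data known. TSS were those of protein-coding transcripts in GENCODE M21; tRNA, small RNA and other transcript starts came also from RefSeq. Spans ran over bins below 20% with at least 5 calls, skipping up to 2 uncovered bins. The Fisher test ran on all autosomal bins with at least 4 CG cytosines and 40 calls in each library, and was tested on simulated data. It compares 2 libraries and not the genotypes. Named islands were the 10 with the most bins, the 10 highest in TCKO, the 5 with the most TCKO calls and none methylated, those of the gene lists, and those at each limit; others are said to be chosen afterwards. Limits for a count of 0 are 3 calls of the total. Tools were scipy 1.17.1, numpy 2.4.6, matplotlib 3.10.9, numba 0.67.0 and Python 3.11.15.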

Additional observations from a re-analysis of the deposited data

How the results depend on the processing

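No paired analysis was possible because each genotype had 1 library. The number of orphan bins and islands moved by over 1.5 times with density, depth and the TSS set: 2572 bins in 2150 islands with at least 16 CG cytosines, 799 in 697 with 24, 2741 in 2082 with 20 calls, 411 in 369 with 80, and 715 in 643 with the starts of transcripts of every gene type. The median TCKO level of a bin was 3.33%, 1.06%, 0.769%, 2.22% and 2.13% under these. The pooled TCKO level was 13.5%, 4.77%, 6.72%, 8.23% and 9.48% under the same 5, 7.78% with 20 CG positions over both libraries, 5.52% with WT below 5% and 11.7% below 20%, 6.71% over 2 kb and 8.09% over 10 kb from a TSS, 6.05% with starts of protein-coding genes only, 7.24% with bins shifted by 100 bp, 7.94% and 7.16% on the plus and minus strand, 6.998% as the mean of bins and 8.23% as the mean of cytosines. The share at 25% or more was 17.8% with 16 and 2.88% with 24 CG cytosines, 5.98% with 20 calls, 5.02% and 14.2% with WT below 5% and 20%, 5.43% with gene starts and 10.5% with every transcript. The share inside protein-coding genes was 30.0% and 22.1% with 20 and 80 calls, 33.8% and 23.1% over 2 and 10 kb, and 48.3% with gene starts. Fisher calls were 304 and 10 with 16 and 24 CG cytosines, 23 with 80 calls, 39 and 112 with WT below 5% and 20%, 95 at a difference above 20 points and 22 with a mean of 4 calls per cytosine. With the libraries exchanged, added after the data were seen, the level read was 1.87% and the share 0.440%. The strand and averaging settings and the difference above 20 points keep the same bins, where the cause of the strand difference was not tested, and the others change which bins are counted or tested, by construction. Of 106 planned values 53 stayed within the interval or within 1.5 times the reported one. With a median of 3 calls per cytosine in TCKO, single sites are known coarsely, and a bin of 40 calls cannot show a level below 7.50% when no call is methylated.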

Other observations

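The choice of bins below 10% in WT leaves no room for a decrease of 10 percentage points or more. The largest decrease from WT to TCKO among the orphan islands, chosen after their values were seen, was at the tRNA-Thr gene n-TTcgt4 nearest Gpx6, with 5 of 59 methylated calls in WT and 0 of 43 in TCKO, followed by the start of the noncoding gene AI506816 (4 of 53 and 0 of 41) and an intron of Ncan (5 of 53 and 1 of 45).

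By chromosome, the pooled TCKO level of the orphan bins ran from 2.26% on chromosome 13, which holds 118 of them and many tRNA genes, to 14.4% on chromosome 10, where 9 of 45 bins were at 25% or more. The WT levels of those chromosomes were 1.46% and 2.17%. Bins near the start of any tRNA, small RNA, RefSeq mRNA or noncoding transcript together were at 4.18% (4.01 to 4.37) in TCKO with 16 of 527 at 25% or more, and the other 785 bins at 9.80% (9.58 to 10.03) with 80.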
